A study of Mus musculus and Rattus norvegicus with 85 samples.

Results

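Gene expression was compared between the lungs of female B6C3F1/Crl mice that breathed chloroprene at 2 ppm and mice that breathed it at 0.3 ppm, for 15 exposure days. The comparison was chosen by the sample titles and holds 10 of the 85 samples of the series, 5 mice a group (numbers 141 to 145 at 2 ppm and 125 to 129 at 0.3 ppm). Chloroprene, a chlorinated butadiene used to make rubber, was given in air by whole-body inhalation for 6 hours a day on 5 days a week, with the lungs taken 19 days after the first exposure. Mice were adult and 10 weeks old at the start. Total RNA came from the right lung lobes, kept in RNAlater, and was hybridised to 1 Affymetrix Mouse430_2 array per mouse. Both groups were exposed. An unexposed mouse group was used here only at 5 days (0 ppm), so 0.3 ppm is the lower concentration and not an air control. The deposited values are on the log2 scale, and every level below is a log2 signal, with 1 unit equal to a doubling. The other mouse groups of 5 entered the same limma fit (9 groups, 45 arrays), so that all share 1 estimate of the spread for each gene.

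Lung club cells and other airway cells carry cytochrome P450 enzymes that turn inhaled olefins such as chloroprene into reactive epoxides. Glutathione and epoxide hydrolases remove such products. Many of the genes for that defence, among them those for glutathione synthesis, thioredoxin reduction and quinone reduction, are switched on by the transcription factor NRF2, which is held back by KEAP1 until electrophiles modify it and which binds antioxidant response elements in DNA.

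At 15 days, 15 genes were higher at 2 ppm than at 0.3 ppm and none was lower, of 13796 genes tested (limma, Benjamini-Hochberg adjusted p under 0.05, two-sided). That is 0.109% of the genes in the upward direction and 0% in the downward direction. The 15 genes were Ces1g, Nqo1, Cbr3, Hmox1, Ces1f, Osgin1, Srxn1, Gclc, Gclm, Aox1, Gpx2, Acox2, Txnrd1, Pgd and Ikbkg. The differences ran from 0.35 to 1.20 on the log2 scale, which is 1.27-fold to 2.30-fold, with a median of 0.65. At an unadjusted p under 0.05 the same limma fit marked 515 genes (3.73%), of which 139 (1.01%) were higher and 376 (2.73%) were lower. That count of 515 moved with single mice. It was 312, 313 and 808 without 2 ppm mice 144, 145 and 143, and 213, 833 and 944 without 0.3 ppm mice 127, 125 and 129. The median difference over all genes was -0.02.

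**Figure D1:**
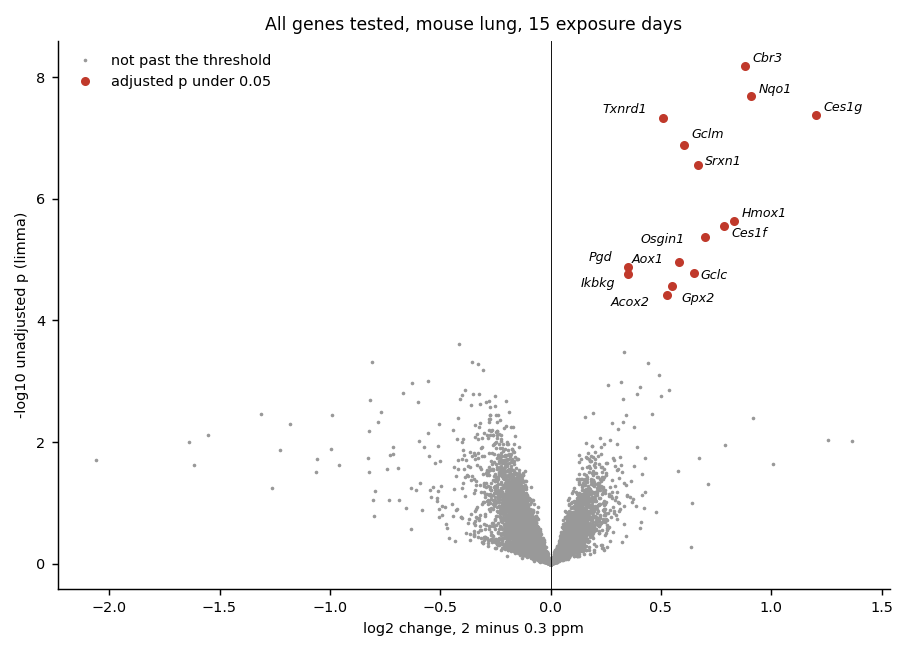
Each point is 1 of the 13796 genes tested, with the log2 difference of 2 ppm minus 0.3 ppm on the horizontal axis and -log10 of the unadjusted limma p on the vertical axis. The 15 genes past the threshold (red, named) all lie to the right of 0, between 0.35 and 1.20.

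In 14 of the 15 genes, all 5 mice at 2 ppm lay above all 5 mice at 0.3 ppm. Over all genes tested, 22 (0.159%) separated the groups fully with 2 ppm higher and 10 (0.0725%) with 2 ppm lower. Gpx2 was the exception among the 15. Mouse 128 was the highest of the 0.3 ppm mice in 12 of the 15 genes. Leaving that mouse out gave 16 genes higher, with Atp2b2 added. Leaving out any other single mouse gave between 8 and 13 (8 without 0.3 ppm mouse 126 and without 0.3 ppm mouse 129, and 9 without 2 ppm mouse 144). All 15 differences stayed above 0 in every such fit, and 7 genes (Cbr3, Ces1g, Gclm, Hmox1, Nqo1, Srxn1 and Txnrd1) stayed past the threshold in all 10. Of the others, Acox2 passed in 1 of the 10, Gpx2 in 2, Ikbkg in 3, Gclc in 4, Aox1 and Pgd in 6 each, Osgin1 in 7 and Ces1f in 9.

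Carboxylesterases, enzymes that split esters in drugs and lipids, gave 2 of the 15 genes, among them the one with the largest difference. Ces1g gave 9.36, 8.81, 9.38, 8.89 and 9.02 in the 2 ppm mice and 7.54, 7.76, 7.88, 8.60 and 7.68 in the 0.3 ppm mice. The groups did not overlap, and 0.3 ppm mouse 128 came nearest to the 2 ppm mice. The difference was 1.20 ± 0.18 (SE), or 2.30-fold, with an adjusted p of 0.000164 (limma). Ces1f gave 8.76, 8.79, 8.81, 8.997 and 8.74 at 2 ppm and 7.86, 7.85, 8.33, 8.49 and 7.64 at 0.3 ppm. Here the 2 ppm mice lay close together and the 0.3 ppm mice were spread widely. Its difference was 0.79 ± 0.14 (SE), with an adjusted p of 0.00477 (limma). The Ces1 genes are a cluster of related copies. The probe set of Ces1f is of a type that can match more than 1 gene, so the signals of these copies may be shared, which was not tested. Of the 9 carboxylesterase and epoxide hydrolase genes tested, these 2 were higher and none was lower. Ces1d, another member of the family, differed by -0.17 ± 0.08 (SE; adjusted p 1.00). Ephx1, the microsomal epoxide hydrolase that opens reactive epoxides, differed by 0.07 ± 0.05 (SE; adjusted p 1.00).

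Quinone and carbonyl reduction was represented by Nqo1 and Cbr3. Nqo1, a quinone reductase and a standard readout of NRF2, gave 8.67, 8.26, 8.67, 8.40 and 8.42 at 2 ppm and 7.15, 7.66, 7.69, 8.14 and 7.23 at 0.3 ppm. Every 2 ppm mouse was above every 0.3 ppm mouse, by a margin of 0.12 at the closest point. The difference was 0.91 ± 0.13 (SE), or 1.88-fold, with an adjusted p of 0.000141 (limma). Cbr3, a carbonyl reductase, gave 11.32, 11.15, 11.27, 11.22 and 11.42 at 2 ppm and 10.27, 10.53, 10.33, 10.86 and 9.97 at 0.3 ppm. The mice at 2 ppm spanned a far narrower range than the mice at 0.3 ppm. The difference was 0.88 ± 0.12 (SE), and its adjusted p of 8.85e-05 (limma) was the smallest of the comparison. Of the 17 reductase genes tested, these 2 were higher and none was lower. Akr1b8, an aldo-keto reductase, differed by 0.39 ± 0.12 (SE) without passing (adjusted p 0.654).

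Both subunits of glutamate-cysteine ligase, the rate-limiting enzyme of glutathione synthesis, were higher. The catalytic subunit Gclc gave 11.81, 11.71, 12.16, 12.11 and 12.21 at 2 ppm and 11.41, 11.33, 11.20, 11.43 and 11.39 at 0.3 ppm. The modifier subunit Gclm gave 10.53, 10.83, 10.89, 10.91 and 10.97 at 2 ppm and 10.30, 10.32, 9.98, 10.24 and 10.28 at 0.3 ppm. Neither subunit overlapped between the groups. The differences were 0.65 ± 0.13 for Gclc (adjusted p 0.0184) and 0.60 ± 0.09 for Gclm (adjusted p 0.000359; SE, limma). Of 15 genes of glutathione synthesis and recycling tested, these 2 were higher, none was lower, and the median difference was -0.05. Gss, which joins glycine in the last step of synthesis, differed by 0.33 ± 0.08 (SE) without passing (adjusted p 0.268). Chac1, which degrades glutathione, differed by 0.67 ± 0.27 (SE; adjusted p 1.00).

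None of the 20 glutathione transferases tested passed, and their median difference was 0.04. Gsta2, the alpha-class transferase with the smallest p, averaged 10.11 ± 0.24 at 2 ppm and 9.61 ± 0.33 at 0.3 ppm (SD, n = 5 each). Its difference of 0.50 ± 0.15 (SE) had an adjusted p of 0.656 (limma). Gstm1, a mu-class transferase, differed by 0.15 ± 0.05 (SE; adjusted p 0.879), and 1 of its other probe sets stood at -0.01.

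Thiol repair and peroxide removal gave 3 of the 15 genes. Txnrd1, which reduces thioredoxin, gave 11.60, 11.53, 11.54, 11.57 and 11.77 at 2 ppm and 11.13, 11.09, 11.05, 11.18 and 11.004 at 0.3 ppm. Srxn1, which restores overoxidised peroxiredoxins, gave 9.37, 9.38, 9.18, 9.63 and 9.74 at 2 ppm and 8.96, 8.69, 8.71, 8.85 and 8.75 at 0.3 ppm. Both were fully separated between the groups, with differences of 0.51 ± 0.08 (adjusted p 0.000164) and 0.67 ± 0.11 (adjusted p 0.000646; SE, limma). Gpx2, a glutathione peroxidase of epithelia, gave 10.88, 10.90, 10.90, 10.995 and 11.09 at 2 ppm and 10.19, 10.34, 10.18, 11.02 and 10.27 at 0.3 ppm. Mouse 128 at 0.3 ppm lay inside the 2 ppm range and the other 0.3 ppm mice lay below it. The Gpx2 difference was 0.55 ± 0.12 (SE), with an adjusted p of 0.0262 (limma). These 3 were the ones that passed among the 20 thioredoxin, peroxiredoxin and glutathione peroxidase genes tested, whose median difference was -0.06.

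Hmox1, haem oxygenase, which opens the haem ring, gave 10.31, 10.32, 10.76, 10.50 and 11.08 at 2 ppm and 9.65, 9.87, 9.71, 9.95 and 9.62 at 0.3 ppm. The spread was larger at 2 ppm here, the reverse of Cbr3 and Ces1f. The difference was 0.83 ± 0.15 (SE), with an adjusted p of 0.0045 (limma). It was 1 of 11 genes of haem breakdown and iron handling tested and the one that passed. Alas1, the first enzyme of haem synthesis, differed by 0.30 ± 0.11 (SE; adjusted p 1.00).

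Osgin1, a growth regulator induced by oxidative stress, gave 10.07, 10.34, 10.07, 10.52 and 10.48 at 2 ppm and 9.81, 9.34, 9.17, 9.90 and 9.76 at 0.3 ppm, a difference of 0.70 ± 0.13 (SE; adjusted p 0.00655). Pgd, the pentose phosphate enzyme that makes NADPH from 6-phosphogluconate, gave 11.92, 11.91, 11.79, 11.77 and 11.82 at 2 ppm and 11.48, 11.44, 11.52, 11.60 and 11.42 at 0.3 ppm. The Pgd difference of 0.35 ± 0.07 (SE; adjusted p 0.0164) was small, and the groups still did not overlap. Of the 12 genes of NADPH supply tested, Pgd was the one that passed, and the transketolase gene Tkt differed by -0.08 ± 0.09 (SE; adjusted p 1.00). Aox1, an aldehyde oxidase, gave 10.79, 10.79, 11.20, 10.999 and 10.89 at 2 ppm and 10.46, 10.30, 10.35, 10.35 and 10.30 at 0.3 ppm. Its difference was 0.58 ± 0.12 (SE; adjusted p 0.0149, limma). It was the one gene that passed of 15 aldehyde dehydrogenases and oxidases tested. In that list Aldh3a1, a NRF2 target in airway cells, averaged 9.67 ± 0.26 at 2 ppm and 9.31 ± 0.43 at 0.3 ppm (SD, n = 5 each), with an adjusted p of 1.00.

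Acox2 and Ikbkg were outside all the gene lists used. Acox2, the peroxisomal oxidase of branched fatty acids and bile acid precursors, gave 9.53, 9.47, 9.43, 9.59 and 9.41 at 2 ppm and 9.004, 9.03, 8.83, 9.37 and 8.57 at 0.3 ppm. The closest mice of the groups were 0.03 apart, and the difference was 0.53 ± 0.11 (SE; adjusted p 0.0348, limma). That call held in 7 of 24 other settings, and in 1 of the 10 that left out 1 mouse. Ikbkg, the regulatory subunit of the kinase that releases NF-kappaB, gave 9.82, 9.93, 9.94, 9.98 and 9.94 at 2 ppm and 9.67, 9.46, 9.46, 9.75 and 9.52 at 0.3 ppm. Its difference was 0.35 ± 0.07 (SE; adjusted p 0.0184, limma). In the RefSeq annotation Ikbkg is the next protein-coding gene to G6pdx, which encodes the first enzyme of the pentose phosphate path, and the spans of these genes overlap. No probe set was annotated to G6pdx, alone or with other symbols, so that gene has no value here. Ikbkg is named outside the rule for named genes, after its value was seen.

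**Figure D2:**
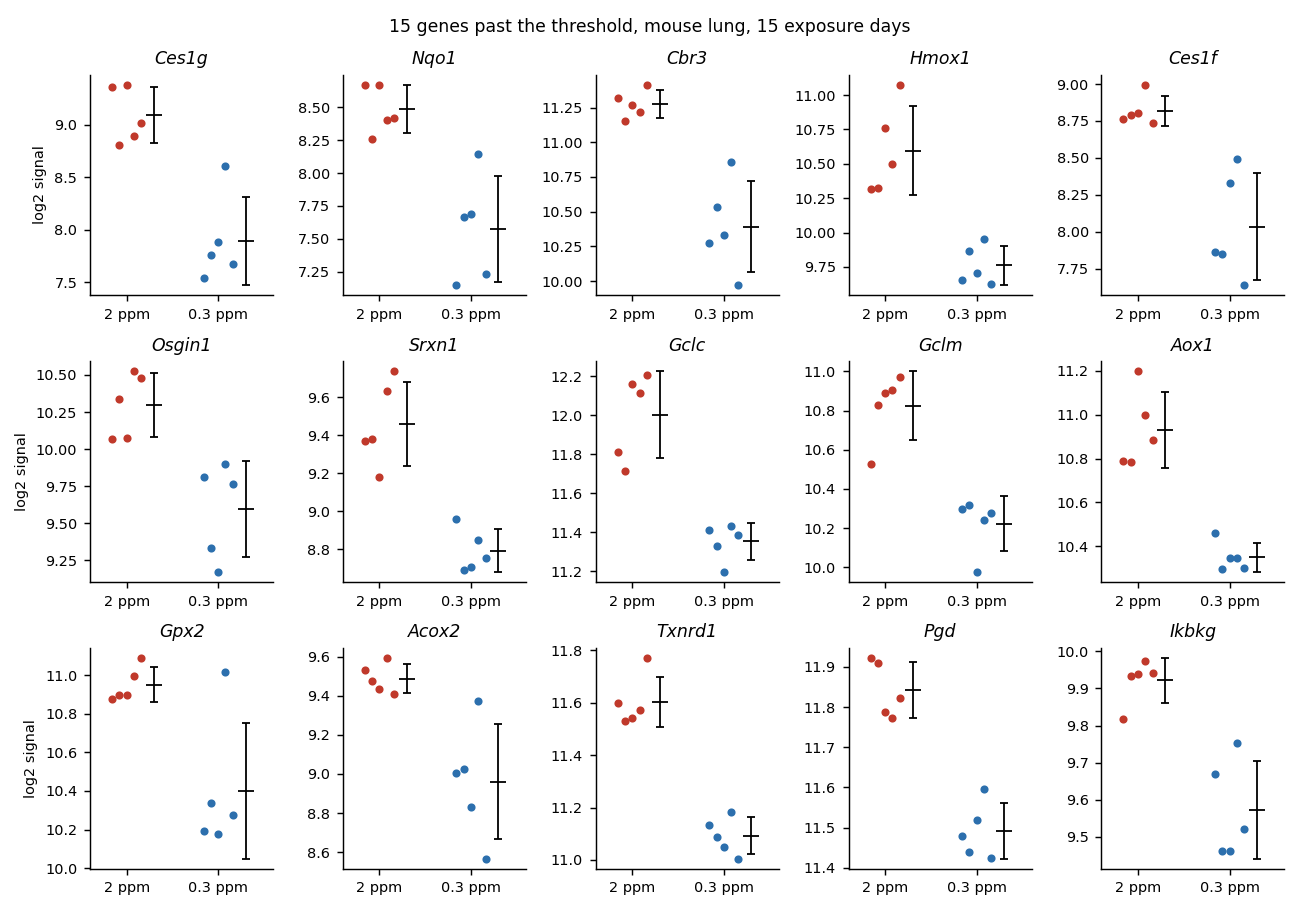
Log2 signal of the 15 genes in each mouse, 2 ppm (red, left) and 0.3 ppm (blue, right), with the mean and SD of 5 mice beside the points and an axis of its own for each gene. The groups do not overlap except in Gpx2, where 0.3 ppm mouse 128 stands at 11.02.

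In the list of NRF2 targets, 10 of the 25 genes tested were higher and none was lower, with a median difference of 0.25, beside 0.109% higher and a median of -0.02 over all genes. The list held 28 genes. It was chosen with earlier results of these data known, so its count describes these mice and is no independent support. The mean log2 signal of the list ran from 11.02 to 11.15 in the 2 ppm mice and from 10.62 to 10.95 in the 0.3 ppm mice, without overlap. At an unadjusted p under 0.05, 13 of the 25 were higher and none was lower, beside 1.01% higher over all genes. The 15 members that did not pass differed by -0.08 (Tkt) to 0.50 (Gsta2), 12 of them above 0 and 3 below. Gsta2, Aldh3a1 and Gstm1 were the ones of these with an unadjusted p under 0.05. Slc7a11, the cystine transporter subunit, differed by 0.25 ± 0.15, and Gsr, which recycles glutathione, by 0.20 ± 0.11. At the other end, the ferritin gene Fth1 differed by -0.01 ± 0.04, Me1 (malic enzyme) by 0.03 ± 0.08, and Taldo1 (transaldolase) by -0.06 ± 0.08 (SE; adjusted p 1.00 for each of these 5, which were named after their values were seen). Without 0.3 ppm mice 126 and 127, 6 of the 25 passed and the median was 0.18, beside 0.058% of all genes higher in that fit.

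Promoter windows from RefSeq (GRCm38.p6, 250 bases before to 50 after a gene start) were at hand for 12 of the 15 genes, and the core of the antioxidant response element, TGACNNNGC read on both strands, was searched in them. It was in a window of 6 of those 12 genes (Acox2, Gclm, Ikbkg, Pgd, Srxn1 and Txnrd1), beside 14.0% of the 27025 genes with a window. Counted by window, it was in 7 of their 19 windows (36.8%), beside 12.4% of the 32851 windows of all genes. The windows of Acox2 overlap and hold the same match, so that match is counted more than once among the 7. A gene with several windows has more chances of a match, and Ikbkg, Pgd and Txnrd1 did not match in all of theirs. A match is a description of letters, not of binding. The 4 windows below are shown because they belong to genes that moved together in the groups of thiol repair and glutathione synthesis, or, for Acox2, to a gene outside the lists. They are read along the strand of the gene, 5′ to 3′, with the match in capitals. All 4 matches lie on the opposite strand, so they appear as the reverse complement. The window of Gclm is chr3:122245307-122245606 (plus strand), of Srxn1 chr2:152105274-152105573 (plus strand), of Txnrd1 chr10:82858956-82859255 (plus strand) and of Acox2 chr14:8258970-8259269 (minus strand).
Gclm: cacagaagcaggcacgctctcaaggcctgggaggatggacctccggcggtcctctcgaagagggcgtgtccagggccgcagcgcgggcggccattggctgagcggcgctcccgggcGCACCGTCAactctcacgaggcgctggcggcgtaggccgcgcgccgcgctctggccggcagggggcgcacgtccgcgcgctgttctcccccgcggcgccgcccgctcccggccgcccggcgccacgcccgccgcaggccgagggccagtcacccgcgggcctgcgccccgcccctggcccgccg
Srxn1: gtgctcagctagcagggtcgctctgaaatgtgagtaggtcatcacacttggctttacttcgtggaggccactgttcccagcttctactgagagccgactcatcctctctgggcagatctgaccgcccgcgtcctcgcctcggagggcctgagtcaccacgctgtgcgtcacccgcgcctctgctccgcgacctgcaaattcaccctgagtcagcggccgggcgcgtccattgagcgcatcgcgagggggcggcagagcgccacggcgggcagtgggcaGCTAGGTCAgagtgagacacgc
Txnrd1: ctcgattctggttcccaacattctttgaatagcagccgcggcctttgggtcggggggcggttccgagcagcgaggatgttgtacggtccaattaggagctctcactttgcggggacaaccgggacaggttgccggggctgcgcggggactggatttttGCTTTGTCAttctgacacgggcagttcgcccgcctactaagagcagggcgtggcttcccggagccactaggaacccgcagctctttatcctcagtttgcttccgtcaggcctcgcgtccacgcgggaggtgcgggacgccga
Acox2: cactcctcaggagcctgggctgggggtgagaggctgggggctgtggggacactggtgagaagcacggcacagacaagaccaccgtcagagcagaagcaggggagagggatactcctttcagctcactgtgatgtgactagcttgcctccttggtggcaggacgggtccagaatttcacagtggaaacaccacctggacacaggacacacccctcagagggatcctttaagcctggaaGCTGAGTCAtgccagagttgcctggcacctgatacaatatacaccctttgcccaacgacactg

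Other probe sets gave a second reading of 6 of the genes. The 15 other probe sets of Gclc, Gclm, Ikbkg, Pgd, Srxn1 and Txnrd1 all gave a positive difference, from 0.04 (Srxn1, 1419942_at) to 0.78 (Gclc, 1424296_at). With p-values adjusted over all 45101 probe sets, 4 of the 15 passed (1 of Gclc, 2 of Pgd and 1 of Srxn1). Those 2 of Pgd and the set used for Pgd end in _x_at, a type that can also match other genes. The remaining set of Pgd, 1423706_a_at, differed by 0.33 ± 0.09 (SE) and did not pass (adjusted p 0.525, limma). The sets used for Gclc and Srxn1 end in _s_at, like that of Ces1f, a type that can match more than 1 gene. Their other sets that passed do not, and differed by 0.78 (Gclc, 1424296_at) and 0.55 (Srxn1, 1451680_at). The 5 other probe sets of Ikbkg lay between 0.11 and 0.29 and none passed. The other 9 genes had 1 probe set each. That fit over all probe sets called 19 probe sets higher and 1 lower. Of the 15 probe sets that stand for the 15 genes, 13 passed in it, and those of Acox2 (adjusted p 0.0772) and Gpx2 (adjusted p 0.057) did not. The lower one (1425469_a_at) carries no gene symbol and differed by -0.43 ± 0.08 (SE; adjusted p 0.0297). Of the higher ones, 1443159_at has no symbol (0.88 ± 0.14, SE; adjusted p 0.000956) and 1426260_a_at has several (0.31 ± 0.06, SE; adjusted p 0.0383).

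The same concentrations were compared in other mice after 5 exposure days, where 11 genes were higher (0.0797%) and none was lower (limma; 0.841% of genes were lower at an unadjusted p under 0.05). All 11 were among the 15 of 15 days, which is 73.3% of the 15-day list and 100% of the 5-day list. The genes past the threshold at 15 days and not at 5 days were Gclc, Gclm, Hmox1 and Osgin1, which differed by 0.53, 0.39, 0.51 and 0.49 at 5 days. The difference between the times was itself tested. Its values for the 15 genes ran from -0.26 (Gpx2) to 0.32 (Hmox1), the smallest unadjusted p was 0.111, and every adjusted p was 0.999 (limma). The 95% interval of that difference was -0.11 to 0.75 for Hmox1, -0.05 to 0.49 for Gclm and -0.59 to 0.08 for Gpx2. Over all genes, 0 passed the test of a difference between the times (limma), and 495 (3.59%) had an unadjusted p under 0.05.

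**Figure D3:**
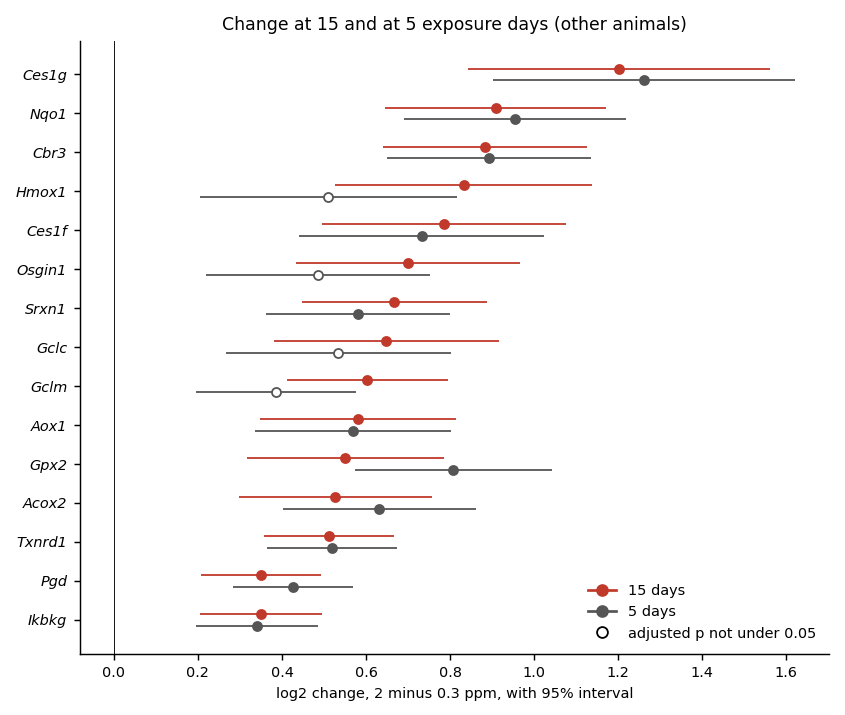
Log2 difference of 2 ppm minus 0.3 ppm for the 15 genes with its 95% interval from limma, at 15 days (red) and in other mice at 5 days (grey), with open points where the adjusted p was not under 0.05. The 4 open points are Hmox1, Osgin1, Gclc and Gclm at 5 days, and each pair of intervals overlaps.

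The 15 genes were followed through the concentration series. Nqo1 averaged 7.58 ± 0.40 at 0.3 ppm, 8.48 ± 0.18 at 2 ppm, 9.28 ± 0.08 at 13 ppm and 9.93 ± 0.18 at 90 ppm after 15 days (SD, n = 5 each). Ces1g averaged 7.89 ± 0.42, 9.09 ± 0.27, 9.69 ± 0.13 and 10.43 ± 0.25 at the same concentrations. Hmox1 took another course, with 9.76 ± 0.14 at 0.3 ppm, 10.59 ± 0.32 at 2 ppm, 10.48 ± 0.11 at 13 ppm and 10.73 ± 0.26 at 90 ppm. Its 13 ppm mice differed from its 2 ppm mice by -0.11 ± 0.15 (SE; adjusted p 1.00, limma), and those of Osgin1 by -0.07 ± 0.13 (SE; adjusted p 1.00). In the step from 2 to 13 ppm at 15 days, which uses the same 2 ppm mice again, 15 genes were higher over all genes (0.109%) and none was lower (limma; 0.362% were lower at an unadjusted p under 0.05). The differences of the 15 genes in that step ran from -0.11 to 0.79. Nqo1, Cbr3, Gclm, Gpx2, Pgd and Txnrd1 differed by 0.79, 0.55, 0.52, 0.53, 0.39 and 0.38, each past the threshold, and the other 9 did not pass. Nqo1 stayed past the threshold in every alternative fit of that step. Cbr3 and Gpx2 failed with no filter, quantile normalization, probe set means, and a term for RNA integrity or the 3′ to 5′ difference. Gclm and Txnrd1 failed with probe set means. With 1 mouse left out, Cbr3 passed only without 13 ppm mouse 161. Gpx2 then passed only without 13 ppm mouse 160 or 2 ppm mouse 145. Txnrd1 did not pass in several of those fits, nor Pgd without 13 ppm mouse 157. The first step for Aldh3a1 was 0.36 ± 0.17 and the next was 1.14 ± 0.17 (SE), and that second step passed (adjusted p 0.000846, limma). For Gsta2 the steps were 0.50 ± 0.15 and 0.81 ± 0.15 (SE), and the second passed (adjusted p 0.00622, limma). That second step of Gsta2 did not pass without 13 ppm mouse 157. Whether the steps of a gene differ in size was not tested.

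Against the same 0.3 ppm mice, the 15 genes differed by 0.52 to 1.80 at 13 ppm and by 0.72 to 2.54 at 90 ppm, beside 0.35 to 1.20 at 2 ppm. At the low end, 0.3 ppm and 0 ppm could be set side by side at 5 days. There the 15 genes differed by -0.03 to 0.35, and none passed (adjusted p 1.00 each, limma). The smallest unadjusted p there was 0.0111, for Osgin1.

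**Figure D4:**
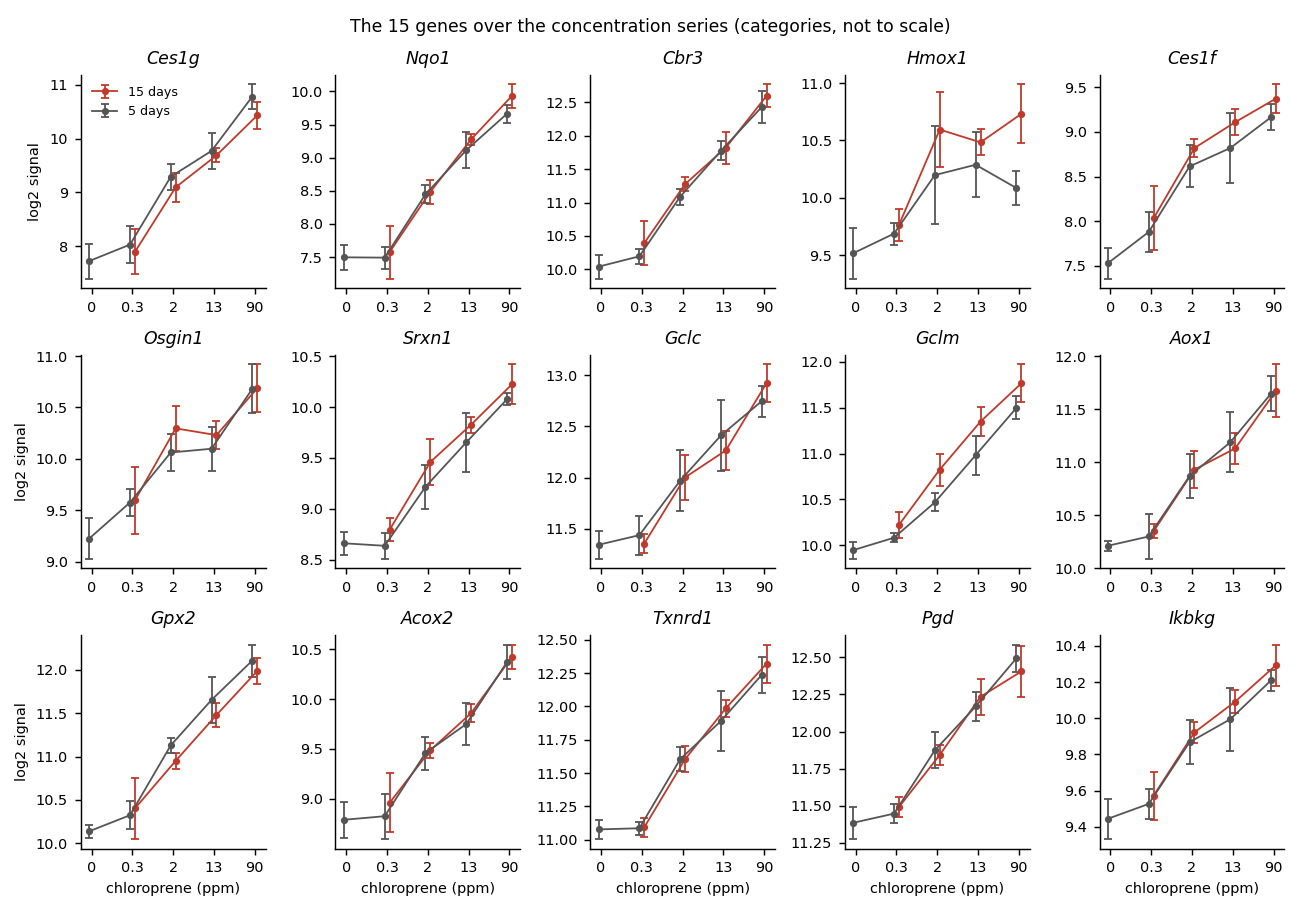
Mean and SD of the log2 signal (n = 5 mice a point) of the 15 genes against the chloroprene concentration in ppm, shown as evenly spaced categories, at 15 days (red) and 5 days (grey). The mean of Nqo1 is higher at each higher concentration at 15 days, ending at 9.93, and Hmox1 stands at 10.59 at 2 ppm and 10.48 at 13 ppm.

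The lung cytochrome P450 genes had a median difference of -0.04 over the 12 tested, in a range of -0.66 to 0.15, and none passed. With 0.109% of all genes past the threshold, a list of this size that holds none does not stand apart from the rest, and the counts of 0 in the lists below are given as descriptions. Cyp2f2, the P450 of club cells, averaged 14.86 ± 0.04 at 2 ppm and 14.88 ± 0.04 at 0.3 ppm, and the club cell secretoglobin Scgb1a1 averaged 15.19 ± 0.04 at 2 ppm and 15.21 ± 0.04 at 0.3 ppm (SD, n = 5 each). Both are among the brightest signals of the arrays. Cyp2e1, which oxidises small solvents, ran from 9.25 to 9.86 at 2 ppm and from 9.25 to 10.97 at 0.3 ppm, so the groups overlapped and the highest mice were at 0.3 ppm. Median differences were 0.00169 over 16 genes of club cells, 0.02 over 25 of motile cilia, 0.00033 over 16 of alveolar type 2 cells and 0.04 over 16 of alveolar type 1 cells, and none of these genes passed. In bulk lung, fewer cells of a type and less RNA per cell cannot be told apart. Medians were -0.08 over 35 genes of the cell cycle, -0.01 over 21 p53 targets and 0.03 over 21 of DNA repair, again with none past the threshold. Mki67, a marker of dividing cells, differed by -0.16 ± 0.24, and Cdkn1a, the p53 target p21, by 0.06 ± 0.17 (SE; adjusted p 1.00 each). Medians were 0.03 over 29 genes of the interferon response, 0.02 over 16 cytokines and chemokines, 0.06 over 22 genes of T and natural killer cells and 0.07 over 11 of neutrophils, and none passed.

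Some of the widest differences were not past the threshold. The inducible heat shock gene Hspa1a ran from 11.50 to 13.15 at 2 ppm and from 9.94 to 11.99 at 0.3 ppm, a difference of 1.26 ± 0.46 (SE; adjusted p 1.00). Egr1, an immediate early gene, gave 12.02, 12.43, 12.15, 12.26 and 10.02 at 2 ppm and 12.10, 11.26, 9.37, 9.80 and 9.53 at 0.3 ppm. Its difference of 1.37 ± 0.50 (SE) overlapped widely between the groups (adjusted p 1.00). Ptgs2, the inducible cyclooxygenase, differed by 0.92 ± 0.30 (SE; adjusted p 0.906). In the downward direction, the smallest p-values belonged to Pla1a (a phospholipase), Fcna (a ficolin of macrophages), Ndufb2 (respiratory complex I), Mdh1 (malate dehydrogenase) and Apoc1 (an apolipoprotein). They differed by -0.42 ± 0.10, -0.81 ± 0.21, -0.35 ± 0.09, -0.33 ± 0.09 and -0.55 ± 0.16 (SE), with adjusted p from 0.213 to 0.556 (limma). Without 0.3 ppm mouse 125, Pla1a, Fcna, Ndufb2 and Apoc1 passed, which were the 4 genes called lower in that fit. Leaving out any other single mouse called none lower. The highest of the 10 mice was 0.3 ppm mouse 127 for Pla1a (7.47), Fcna (8.88), Mdh1 (13.26) and Apoc1 (11.76). For Ndufb2 it was 0.3 ppm mouse 128 (12.31). The 16 genes of B and plasma cells had a median difference of -0.02, and none passed. They ran from -1.06 to 0.23, with 7 above 0 and 9 below. Jchain, of antibody-secreting cells, differed by -0.82 ± 0.25 (SE; adjusted p 0.691), and Ighm, the heavy chain of IgM, by -1.06 ± 0.48 (SE; adjusted p 1.00), while other probe sets of Ighm gave 0.186 and 0.0702. The B cell receptor gene Cd79a differed by 0.23 ± 0.33 (SE; adjusted p 1.00).

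Markers of fat and of skeletal muscle were highest in 0.3 ppm mouse 127, and those of cardiac muscle were not. Cidea, a brown fat gene, ran from 7.30 to 7.61 at 2 ppm and from 7.14 to 9.61 in 4 of the 0.3 ppm mice, and stood at 13.01 in 0.3 ppm mouse 127. Ucp1, the uncoupling protein of brown fat, ran from 6.13 to 7.39 in the 2 ppm mice and from 6.32 to 13.66 in the 0.3 ppm mice. Adipoq gave 8.06, 8.14, 8.17, 9.22 and 8.43 at 2 ppm and 8.65, 9.61, 12.32, 10.08 and 7.67 at 0.3 ppm. Acta1, the actin of skeletal muscle, gave 6.08, 6.24, 6.38, 6.90 and 6.68 at 2 ppm and 6.41, 7.50, 10.40, 6.34 and 6.60 at 0.3 ppm. The mean over the 13 adipose genes ran from 8.85 to 9.28 at 2 ppm and from 8.998 to 11.98 at 0.3 ppm, where mice 126 (9.92) and 128 (9.63) also stood above every 2 ppm mouse. Of these 13 genes none passed, 7 had an unadjusted p under 0.05 in the downward direction, and the median difference was -0.59. Without mouse 127 that count was 0 and the median was -0.27. Of 11 skeletal muscle genes, 7 were likewise lower at an unadjusted p under 0.05 with a median of -0.36, against 2 and -0.24 without mouse 127. All 16 cardiac muscle genes differed downward, by -0.69 to -0.01 with a median of -0.39, and none had an unadjusted p under 0.05. Their mean ran from 8.50 to 9.32 at 2 ppm and from 8.997 to 9.90 at 0.3 ppm, with mouse 128 the highest and mouse 127 at 9.05. The cardiac median was -0.47 without mouse 127 and -0.51 without mice 126 and 127. Genes of oxidative phosphorylation gave 18 of 25 lower at an unadjusted p under 0.05 and a median of -0.18, against 3 of 25 and -0.08 without mouse 127. Genes of fatty acid oxidation gave 13 of 18 and -0.26, against 3 of 18 and -0.10 without that mouse. Over all genes, 2.73% were lower at that threshold with all mice and 0.877% without mouse 127.

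**Figure D5:**
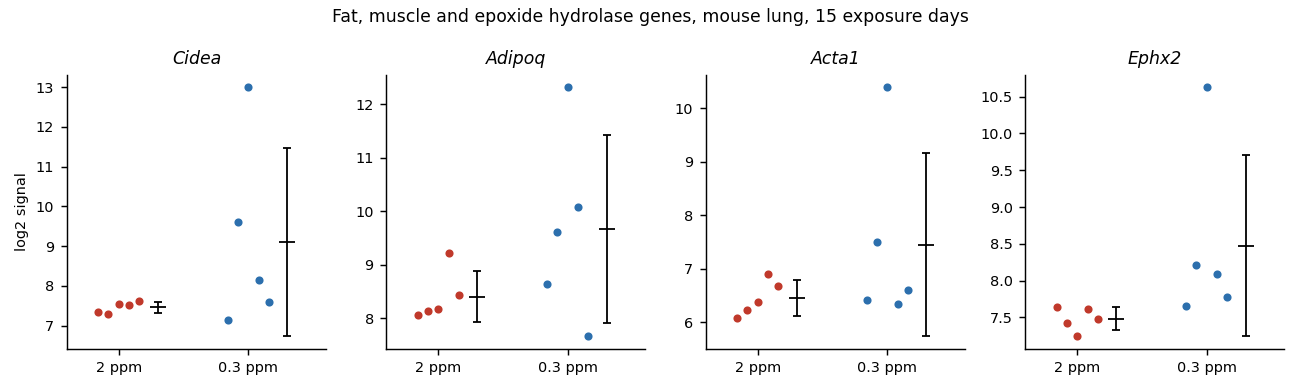
Log2 signal in each mouse of Cidea and Adipoq (fat), Acta1 (skeletal muscle) and Ephx2 (soluble epoxide hydrolase), 2 ppm (red, left) and 0.3 ppm (blue, right), with the mean and SD of 5 mice beside the points. The highest point of every panel is 0.3 ppm mouse 127, at 13.01, 12.32, 10.40 and 10.63.

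Ephx2, the soluble epoxide hydrolase, was also highest in 0.3 ppm mouse 127. It gave 7.64, 7.43, 7.25, 7.61 and 7.48 at 2 ppm and 7.65, 8.22, 10.63, 8.08 and 7.77 at 0.3 ppm. The groups were separated narrowly, the mean difference was -0.99 ± 0.32 (SE), and the adjusted p was 0.85 (limma). The part of the fat and muscle signal in these differences was not tested. Without 0.3 ppm mice 126 and 127, which had the highest brown fat signals, the differences of the 15 genes ran from 0.27 to 1.15, and 8 of them passed.

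Array and RNA quality were compared between the groups. The RNA integrity number averaged 9.38 at 2 ppm and 9.40 at 0.3 ppm (exact permutation test over 252 splits, two-sided p = 1). The 3′ minus 5′ signal of the control transcripts averaged 0.184 at 2 ppm and 0.159 at 0.3 ppm (exact permutation p = 0.587). It ran from 0.150 to 0.218 at 2 ppm and from 0.236 to 0.259 in 0.3 ppm mice 125, 128 and 129, and was 0.0382 and 0.0259 in 0.3 ppm mice 126 and 127, the mice with the highest brown fat signals. With that measure as a covariate, 15 genes were higher (limma). The array medians had an exact permutation p of 0.778. The smallest p that this design allows is 0.00794. Alveolar and club cell markers were at the top of all 10 arrays (Sftpc 15.22 to 15.30 at 2 ppm and 15.23 to 15.27 at 0.3 ppm). Correlations between arrays ran from 0.975 to 0.993 and no arrays were identical. One label field disagrees with the others. The treatment duration of mice 141 and 143 at 2 ppm and of mice 126, 127 and 128 at 0.3 ppm is given there as 5 days, while their titles and treatment protocols give 15 days. Among the mice with 15 days in that field (3 at 2 ppm and 2 at 0.3 ppm) the 15 genes differed by 0.36 to 1.30 and 5 passed. Among those with 5 days (2 at 2 ppm and 3 at 0.3 ppm) they differed by 0.32 to 1.29 and none passed, with 576 genes at an unadjusted p under 0.05 in limma.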

How the data were processed

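The 10 lungs were read on Affymetrix Mouse430_2 arrays. Values are log2 signals as deposited by the authors, 1 column per array, and the method that summarised and normalised them is not given in the sources used here. The values run from 3.47 to 15.34, and the number of arrays limits the precision. Probe sets were named from the platform annotation, updated by Entrez identifier to RefSeq. Of 45101 probe sets, 34958 had 1 symbol, 932 several and 9211 none. Probe sets above the 40th percentile of the table (6.67) on at least 5 of 45 arrays were kept, and the one with the highest mean stood for its gene, leaving 13796 genes. limma 3.58.1 in R 4.3.3 fitted 9 group means (lmFit, eBayes, 36 residual degrees of freedom), with Benjamini-Hochberg adjustment over all genes. The test script was tested on simulated data. Named were up to 12 rises and falls past the threshold (in a direction with fewer than 5, also the 5 smallest p-values), list members past it, up to 4 members of a described list by smallest p, and a set of xenobiotic, stress and tissue genes. The genes and lists were chosen with earlier results of these data known. Mice were separate animals. Alternatives changed the filter, normalization, probe set rule, moderation, covariates, arrays fitted and mice left out. Technical measures were compared by exact permutation. Promoter motifs were searched in Python 3.11.15.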

Additional observations from a re-analysis of the deposited data

Results flagged for a closer look

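In 106 sets of 5 mice (each gene or technical measure in each group), 9 had a mouse whose gap to its nearest neighbour took up more than 0.71 of the range of its group (Dixon's 95% value for 5). Chance marks about 1 in 20 such sets, and the genes share mice. Of the 15 genes past the threshold, 5 had such a mouse. In the 2 ppm group these were Ces1f in mouse 144 (8.997, nearest 8.806), Ikbkg in mouse 141 (9.818, nearest 9.935) and Txnrd1 in mouse 145 (11.77, nearest 11.6). In the 0.3 ppm group they were Gclm in mouse 127 (9.976, nearest 10.24) and Gpx2 in mouse 128 (11.02, nearest 10.34).

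Among the other genes, 2 ppm mouse 143 was low for Gss (9.918, nearest 10.14) and 2 ppm mouse 145 was low for Egr1 (10.02, nearest 12.02). Mouse 127 at 0.3 ppm was high for Acta1 (10.4, nearest 7.5) and for Ephx2 (10.63, nearest 8.218). That mouse also had the highest fat signals, and the part of those signals in the Ephx2 value was not tested.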

How the results depend on the processing

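The 15 genes higher at 2 ppm after 15 days remained 15 with no filter, with a filter at the 60th percentile, with quantile normalization, with a variance trend and robust moderation, and with the 3′ to 5′ difference as a covariate. They were 13 with a term for the RNA integrity number, 12 with the mean of a gene's probe sets and 10 with only the 4 groups of 15 days. The fit with the RNA integrity number also left out the arrays without a recorded number, which were all in groups of 5 days. The count was 0 with only the 10 arrays compared (smallest adjusted p 0.0727, 231 genes at an unadjusted p under 0.05, limma). There the spread is estimated from those 10 arrays alone, and why the calls were lost was not tested. In fits that kept the other groups, the count was 5 with only mice whose duration field gives 15 days. It was 0 with only those whose field gives 5 days. The count was 3 with that field as a block in the 10 arrays alone (smallest adjusted p 0.00624, limma). The same 10 arrays without the block gave 0. The count was 5 without any mouse whose number carries a letter. In the groups compared these were 143 at 2 ppm and 126 and 127 at 0.3 ppm. Lettered mice of the 0.3 ppm group of 5 days and the 90 ppm group of 15 days also left that fit. The count was 8 without 0.3 ppm mice 126 and 127, a choice made after seeing the data. Leaving out 1 mouse at a time gave 8 to 16 higher and 0 to 4 lower. The count was 8 without 0.3 ppm mouse 126 or 129, 9 without 2 ppm mouse 144, and 4 were lower without 0.3 ppm mouse 125. Over all probe sets 1 was lower. All 15 differences stayed above 0 in each of these fits, with none of the 15 changing sign.

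At 5 days the count of higher genes ran from 7 to 13 when 1 mouse was left out (7 without 2 ppm mouse 137), and with no filter 1 gene, Il22ra2, was lower. For 13 over 2 ppm it ran from 4 to 14 (4 without 13 ppm mouse 157, 7 without 13 ppm mouse 158, 6 without 2 ppm mouse 143). The difference between the times stayed at 0 genes in all fits.

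Signs turned for 14 genes that had not passed. With only mice whose field gives 15 days, Cyp2e1 was 0.28, Fkbp5 0.11, Nr1d1 -0.0616, Adipoq 0.44, Acta1 0.10 and Fabp4 0.0276. With only those whose field gives 5 days, Scgb1a1 was 0.0103, Mki67 0.21 and Cdkn1a -0.13. Cdkn1a was -0.0167 with the field as a block, -0.0456 without the lettered mice and -0.149 without mice 126 and 127, and Acta1 was 0.0228 and 0.00393 in the last 2 of these. Cyp2f2 was 0.000168 with quantile normalization. Leaving out 1 mouse at a time gave Cdkn1a -0.0235 to 0.197, Mki67 -0.284 to 0.04999 and Fkbp5 -0.566 to 0.0339. Other probe sets gave Ndufb2 0.0626, Zbtb16 0.0159, Gstm1 -0.0107, and Ighm 0.186 and 0.0702. The causes were not tested. No paired analysis was possible because the groups compared share no replicate numbers.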
